A study of Mus musculus with 20 samples.

Results

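Integrins are cell surface receptors made of 1 alpha and 1 beta chain, and laminins are the cross-shaped trimers of 1 alpha, 1 beta and 1 gamma chain that build basement membranes. All genes whose symbol names an integrin alpha or beta chain or a laminin chain were taken from the table, without use of their values. This gave 37 of 23402 genes, of which 26 code for integrin chains and 11 for laminin chains. The integrins were divided into 8 leukocyte chains, which serve the adhesion and traffic of white blood cells, and 18 matrix-binding chains, which anchor cells to collagen, laminin, fibronectin and vitronectin.

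The samples were subcutaneous tumours of MC38, a mouse colon carcinoma line, profiled by stranded total RNA sequencing. The 10 Control libraries came from tumours given vehicle, and the 10 P.T.ATBx libraries came from tumours given ATBx around the tumour. ATBx is commonly short for antibiotics. The agent, its dose and schedule, and the strain, age and genotype of the host mice were not given in the sources used here. Nothing in the labels ties each library to its own animal. The p-values therefore measure only the spread among libraries, some of which may be technical.

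An integrin heterodimer binds its ligand outside the cell and, through talin, kindlin and the complex of integrin-linked kinase, ties it to the actin cytoskeleton. The beta 2 chain pairs only with leukocyte alpha chains, whereas the beta 1 chain pairs with many alpha chains and is found on nearly every cell. The alpha v chain pairs with several beta chains, and some of these dimers release active TGF-beta from its latent complex. Laminin with the alpha 4 chain is typical of the basement membrane of blood vessels, while laminin with the alpha 3 chain is typical of epithelia.

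The 2 leukocyte alpha chains with the highest levels, Itgam and Itgax, lie close together in GRCm38, at chr7:128062640-128118491 and chr7:128129526-128150657, and their levels came apart in 2 libraries, Control 3 and P.T.ATBx 2. Their RefSeq promoter windows are shown with that of Itgb5 as a matrix-binding contrast. After Itgb1, Itgb5 was the most abundant beta chain that pairs with alpha v. Each window runs from 250 bases before to 50 bases after an annotated transcript start, 5′ to 3′ on the gene's plus strand. Capitals mark the letters GAGGAA or their reverse complement TTCCTC, the purine-rich box known from sites of the myeloid factor PU.1. In GRCm38.p6 the windows lie at chr7:128062390-128062689 for Itgam, chr7:128129300-128129599 for Itgax and chr16:33829415-33829714 for Itgb5.
Itgam: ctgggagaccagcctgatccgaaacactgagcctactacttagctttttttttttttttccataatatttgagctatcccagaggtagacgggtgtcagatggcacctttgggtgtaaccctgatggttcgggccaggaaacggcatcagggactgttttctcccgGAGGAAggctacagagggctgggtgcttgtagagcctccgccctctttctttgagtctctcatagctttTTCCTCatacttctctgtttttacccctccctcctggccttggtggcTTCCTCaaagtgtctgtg
Itgax: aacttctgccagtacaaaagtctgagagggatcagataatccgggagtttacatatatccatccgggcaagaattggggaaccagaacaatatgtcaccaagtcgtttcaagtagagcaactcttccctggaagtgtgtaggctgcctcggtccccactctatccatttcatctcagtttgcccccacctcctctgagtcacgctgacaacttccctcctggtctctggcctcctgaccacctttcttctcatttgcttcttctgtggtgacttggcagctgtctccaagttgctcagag
Itgb5: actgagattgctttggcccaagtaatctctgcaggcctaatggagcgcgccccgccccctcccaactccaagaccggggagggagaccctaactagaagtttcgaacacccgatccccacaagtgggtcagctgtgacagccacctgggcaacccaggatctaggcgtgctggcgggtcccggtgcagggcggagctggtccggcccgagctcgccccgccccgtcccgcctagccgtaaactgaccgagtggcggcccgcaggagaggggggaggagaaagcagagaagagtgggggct
The Itgam window held 3 copies and the Itgax and Itgb5 windows held 0. The promoter table had 26 windows for 23 of the 37 genes, and Itga7 was among the genes with no entry. The letters occurred on either strand in 28.3% of all 32851 windows, in 2 of 4 leukocyte integrin windows, in 7 of 16 matrix-binding windows and in 5 of 6 laminin windows. The Itgb5 window held 20 CG pairs against 6 for Itgam and 5 for Itgax. The median was 13 CG pairs over the matrix-binding windows, 5.5 over the leukocyte windows, 4.5 over the laminin windows and 7 over all windows. These matches describe letters in a window and not binding.

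Levels are given as FPKM, fragments scaled to gene length and library size, which can be compared between genes. Summed FPKM ran from 556770 to 752782 between libraries, and the RNAs of RNase P and RNase MRP took 7.75% to 20.5% of that sum. The 4 highest sums belonged to Control 1, P.T.ATBx 1, P.T.ATBx 4 and Control 3, and results that rest on these libraries are given with and without them. The relative depth of the libraries, read from the spacing of low values, covered a 1.59-fold range. The labels name the cells as cancer cells, but the summed FPKM of 4 pan-leukocyte markers had a median of 241 in Control against 228 in P.T.ATBx, so leukocyte RNA was present in both groups. Of 7 colon epithelial markers, Cdx2 was listed at 0 in all 20 libraries, and Krt20 and Vil1 had a mean under 1 FPKM. Means in Control and P.T.ATBx were 13.7 and 6.91 FPKM for Krt18 and 10.8 and 5.67 for Krt8. Epcam was at 3.70 and 1.96 FPKM and Cdh1 at 3.26 and 2.56. The 7 summed to 3.88 to 114 FPKM in Control and 8.03 to 33.3 in P.T.ATBx. Of the 4 that entered the test described below, 0 passed in either direction.

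Of the 37 genes, 29 had a mean of at least 0.5 FPKM over all libraries and were tested: 7 leukocyte integrins, 15 matrix-binding integrins and 7 laminins. The tests were run in limma on log2(FPKM + 1) over 12788 genes, with Benjamini-Hochberg adjustment over all of them and a threshold of 0.05. Over all tested genes, 59, or 0.461%, passed as higher in P.T.ATBx, and 49, or 0.383%, passed as lower. These counts were 104 and 89 without Control 1, 84 and 78 without Control 2, and 38 and 31 without P.T.ATBx 4. Among the 29, the laminin receptor chain Itga7 rose and 0 fell. At an unadjusted p under 0.05, 8 of the 29 differed, or 27.6%, against 13.6% of all tested genes. These were Itga7, Itgae, Itgb8, Itgav and Itgb5 on the higher side and Itgb3, Itga3 and Itgb4 on the lower side. All of them except Itgae bind matrix, so the count was 7 of 15 for matrix-binding integrins, 1 of 7 for leukocyte integrins and 0 of 7 for laminins.

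**Figure D1:**
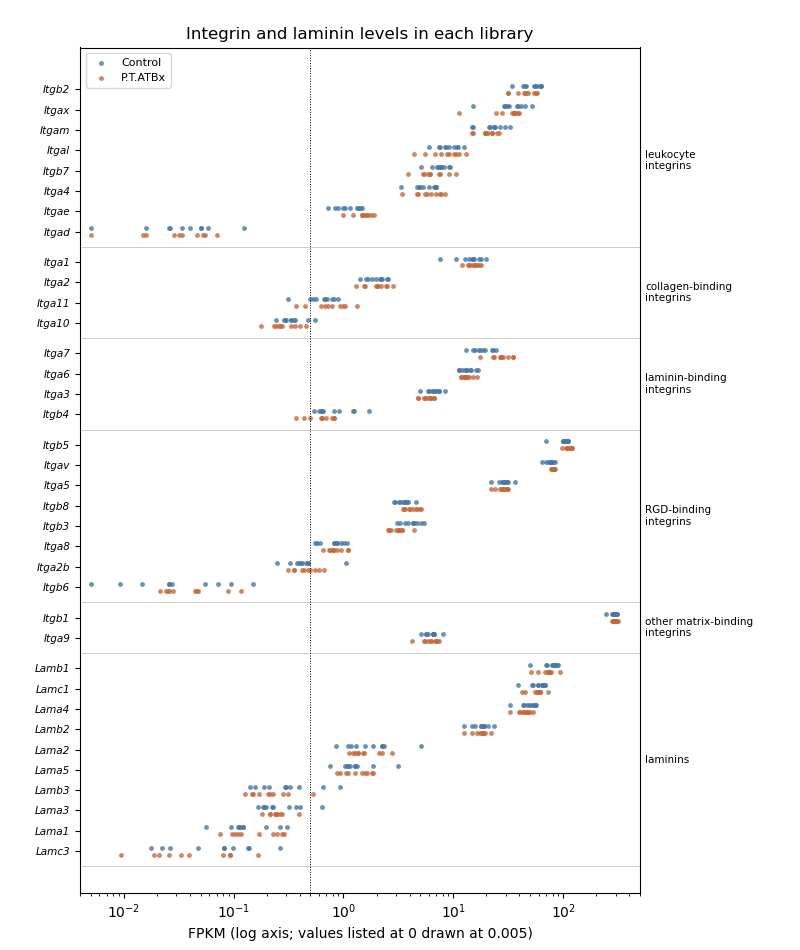
FPKM of 36 of the 37 genes in each of the 20 libraries on a log axis, 1 point per library, with the dotted line at 0.5 FPKM. Itgb1 stood highest, with means of 289 and 296 FPKM, and 8 genes had a mean below the line.

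The leukocyte and matrix-binding integrins were then compared as groups, as a description with no test. The median log2 fold change, always P.T.ATBx minus Control, was −0.14 over the 7 leukocyte integrins, with 2 values above 0 and 5 below. Over the 15 matrix-binding integrins it was 0.03, with 9 values above 0 and 6 below, and over all tested genes it was 0.0027. Without P.T.ATBx 2 the leukocyte median was −0.0028, and without Control 3 the matrix-binding median was 0.0049. Without the 4 libraries of highest sum these medians were −0.068 and 0.0088. The summed FPKM of the leukocyte chains divided by that of the matrix-binding chains ran from 0.158 to 0.276 in Control, with a median of 0.248, and from 0.137 to 0.255 in P.T.ATBx, with a median of 0.210. The groups overlapped over most of this range. In bulk RNA, fewer cells of a type and less RNA per cell cannot be told apart.

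**Figure D2:**
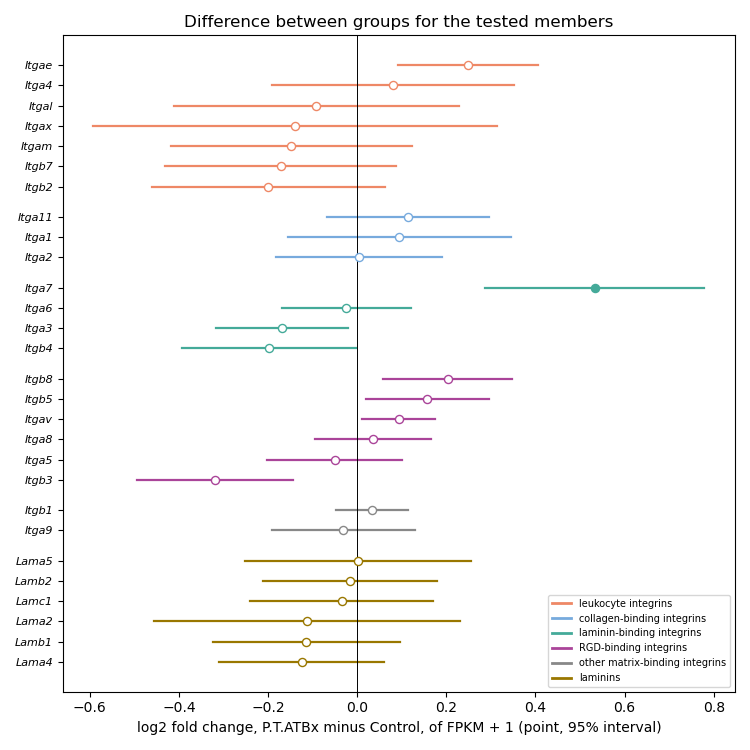
Log2 fold change of FPKM + 1 with its 95% interval for 28 of the 29 tested genes, coloured by group, with a filled point where the adjusted p was under 0.05. Itga7 was the 1 filled point, and all 6 laminin intervals drawn included 0.

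Itga7 codes for the alpha 7 chain, which pairs with beta 1 into a laminin receptor best known from skeletal muscle and also made by vascular smooth muscle and Schwann cells. The gene lies at chr10:128933421-128958286 in GRCm38. Its level in the Control libraries ran from 12.9 FPKM in Control 6 through a median of 18.1 to 24.3 in Control 9. In the P.T.ATBx libraries it ran from 17.4 in P.T.ATBx 2 through a median of 27.2 to 35.1 in P.T.ATBx 8. The ranges overlapped, but 7 of 10 P.T.ATBx libraries were above the highest Control library and 9 of 10 were above the Control median. The mean was 18.6 ± 3.67 (SD, n = 10) in Control against 27.4 ± 5.43 (SD, n = 10) in P.T.ATBx. Itga7 rose by a log2 fold change of 0.53 (SE 0.12, 95% interval 0.29 to 0.78), with an adjusted p of 0.0316 in limma. The call was lost when the 4 libraries of highest sum were left out (0.52, adjusted p = 0.142 in limma). On a scale that gives each library the same sum, it was also lost (0.54, adjusted p = 0.107 in limma). Leaving out a single library ended the call for Control 4, Control 5, Control 6, P.T.ATBx 3, P.T.ATBx 4, P.T.ATBx 5, P.T.ATBx 9 and P.T.ATBx 10, with adjusted p-values in limma from 0.0512 to 0.0663. The log2 fold change was between 0.48 and 0.60 in the 32 alternative settings run.

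Values of other cell types that make Itga7 stand beside this result. The summed FPKM of 6 skeletal muscle markers ran from 0.798 through a median of 1.92 to 77.7 in Control, and from 1.34 through 9.40 to 45.5 in P.T.ATBx. All 6 had a fold change above 0, with a median of 0.43, and 0 of 6 passed the test. With the muscle marker score as a covariate the log2 fold change of Itga7 was 0.51, with an adjusted p of 0.0575 in limma. The 5 pericyte and smooth muscle markers summed to 51.0 to 90.6 FPKM in Control and 60.9 to 69.1 in P.T.ATBx, with medians of 64.0 and 64.6. Among 4 Schwann cell markers the sum ran from 4.08 to 11.3 FPKM and from 4.04 to 7.31. The part of smooth muscle and Schwann cells in the Itga7 result was not tested.

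The other laminin-binding chains had log2 fold changes below 0 that did not pass the test. Itga3, the alpha 3 chain of an epithelial laminin receptor, ran from 4.98 through a median of 6.66 to 8.34 FPKM in Control and from 4.76 through 5.95 to 6.65 in P.T.ATBx. All 10 P.T.ATBx libraries were below the Control median, although the ranges overlapped. The log2 fold change of Itga3 was −0.17 (95% interval −0.32 to −0.02), with an adjusted p of 0.294 in limma. Itga6, whose chain pairs with beta 1 or beta 4, had 13.5 ± 1.82 FPKM (SD, n = 10) in Control against 13.2 ± 1.52 (SD, n = 10) in P.T.ATBx. Itgb4, the beta 4 chain of epithelial hemidesmosomes, was near the detection filter, at 0.534 to 1.71 FPKM in Control and 0.371 to 0.819 in P.T.ATBx. Its log2 fold change was −0.20, with an adjusted p of 0.357 in limma.

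**Figure D3:**
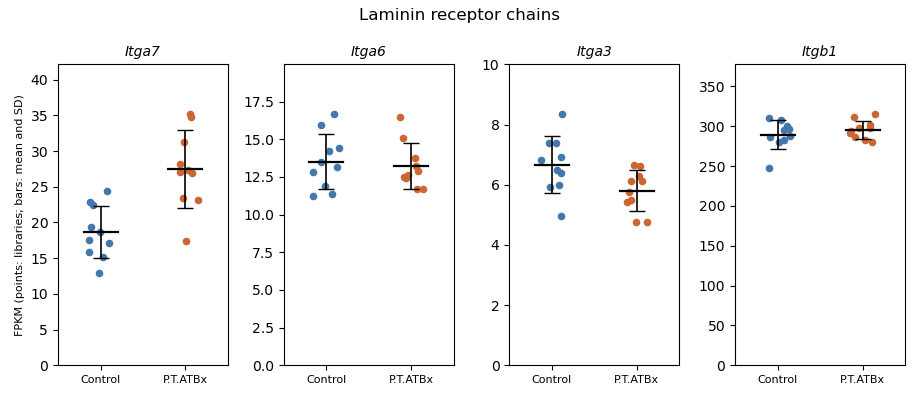
FPKM of Itga7, Itga6, Itga3 and their shared partner Itgb1 in each library, with the mean and SD of each group of 10. Itga7 was higher in most P.T.ATBx libraries, with means of 18.6 and 27.4 FPKM. The group ranges of Itga6, Itga3 and Itgb1 overlapped, and all 10 P.T.ATBx values of Itga3 were below its Control median.

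The difference between Itga7 and its fellow chains was measured within each library, which nearly removes any factor that scales a whole library. Itga7 minus Itga3 on the log2(FPKM + 1) scale was 1.34 ± 0.22 (SD, n = 10) in Control against 2.05 ± 0.24 (SD, n = 10) in P.T.ATBx. The group means differed by 0.70, and all 10 P.T.ATBx libraries were above the Control median. Itga7 minus Itgb1 differed by 0.50 and Itga7 minus Itga6 by 0.56, each with 9 of 10 libraries above the Control median. Without the 4 libraries of highest sum the 3 differences were 0.70, 0.51 and 0.52. Itga7 was picked for these differences with its result known, so they describe that result on another scale, are given with no test and do not support it.

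As shares of the summed FPKM of the 3 laminin-binding alpha chains, Itga7 took 47.7% ± 5.17 (SD, n = 10) in Control against 58.6% ± 6.11 (SD, n = 10) in P.T.ATBx. The share of Itga3 was 17.2% ± 1.79 (15.5% to 21.5%) in Control and 12.5% ± 1.19 (10.2% to 14.2%) in P.T.ATBx, with no overlap between the groups. These shares restate the within-library differences on a linear scale and likewise have no test. Among all alpha integrin chains, Itga7 went from 7.67% ± 1.30 to 10.9% ± 1.77 of the summed FPKM (SD, n = 10 each), and the most abundant alpha chain in both groups was Itgav, with 31.3% and 32.5%.

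The alpha v chain and its beta partners recognise the RGD motif of vitronectin, fibronectin and osteopontin. Itgb3, whose chain pairs with alpha v on osteoclasts, activated endothelium and macrophages and with alpha IIb on platelets, lies at chr11:104608000-104670476 in GRCm38. Its level ran from 3.06 through a median of 4.30 to 5.40 FPKM in Control and from 2.56 through 3.15 to 4.39 in P.T.ATBx. All P.T.ATBx libraries except P.T.ATBx 6, at 4.39, were below the Control median, and 4 of 10 were below the lowest Control library. The log2 fold change was −0.32 (95% interval −0.49 to −0.14), with an adjusted p of 0.0731 in limma, which missed the threshold. It passed without P.T.ATBx 6 (−0.36, adjusted p = 0.0272 in limma), without Control 1 (−0.36, adjusted p = 0.0316 in limma) and without Control 2 (−0.35, adjusted p = 0.0419 in limma). In 27 of the 32 alternative settings it still missed the threshold, also without the 4 libraries of highest sum. Over all 32 the adjusted p in limma ran from 0.0272 to 0.238 and the log2 fold change from −0.40 to −0.27. The 5 platelet markers summed to a median of 28.0 FPKM in Control against 24.1 in P.T.ATBx. Pf4 had means of 29.2 and 23.6 FPKM and Gp1bb of 2.16 and 2.03. The means of Ppbp were 0.184 and 0.232, those of Gp6 0.013 and 0.034, and those of Gp9 0.067 and 0. Gp9 was listed at 0 in 16 of the 20 libraries and Gp6 in 15. The part of platelets in the Itgb3 value was not tested.

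The beta partners Itgb5 and Itgb8 had log2 fold changes above 0 that did not pass the test. Itgb5, the vitronectin receptor chain, ran from 69.2 in Control 3 through a median of 104 to 110.0 FPKM in Control and from 97.5 through 113 to 121 in P.T.ATBx. Without the outlying Control 3 its log2 fold change went from 0.16 to 0.098, and it passed the threshold in neither case (adjusted p = 0.296 in limma with all libraries). Itgb8, which with alpha v activates latent TGF-beta, ran from 2.88 through 3.57 to 4.60 FPKM in Control and from 3.50 through 4.16 to 5.03 in P.T.ATBx. Its log2 fold change was 0.20 (95% interval 0.06 to 0.35), with an adjusted p of 0.180 in limma. Itgav itself had 75.9 ± 5.68 FPKM (SD, n = 10) in Control against 80.8 ± 2.27 (SD, n = 10) in P.T.ATBx, a log2 fold change of 0.09 with an adjusted p of 0.294 in limma. Itgb6, the epithelial partner, was at 0.047 FPKM in both groups and was listed at 0 in 1 Control library.

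Among the 4 beta chains that pair with alpha v beside beta 1, Itgb5 took 92.8% ± 1.44 of the summed FPKM in Control against 93.8% ± 0.645 in P.T.ATBx (SD, n = 10 each). Itgb3 took 3.94% ± 1.19 (2.74% to 6.96%) in Control and 2.65% ± 0.51 (2.01% to 3.82%) in P.T.ATBx. All 10 P.T.ATBx shares of Itgb3 were below the Control median and 7 were below the lowest Control share. As Itgb5 made up most of the sum, these shares restate the levels of Itgb3 and Itgb5 given above. They have no test and do not support those results. The highest Control share belonged to Control 3, where Itgb5 was lowest and Itgb3 highest.

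**Figure D4:**
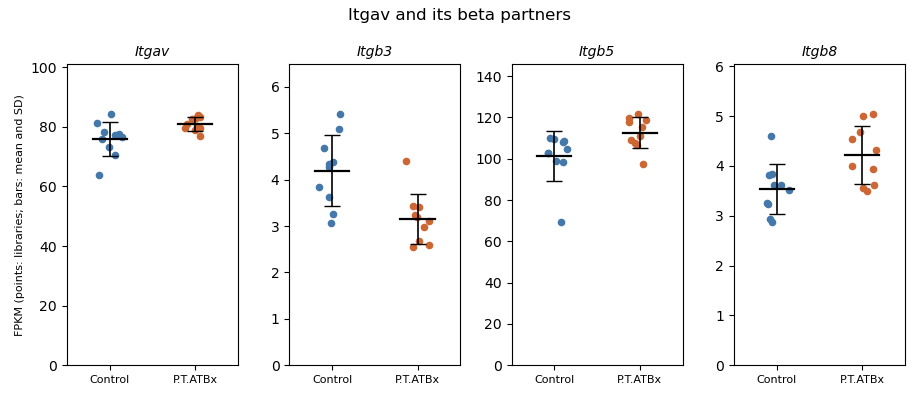
FPKM of Itgav and of its beta partners Itgb3, Itgb5 and Itgb8 in each library, with the mean and SD of each group of 10. Itgb3 was lower in most P.T.ATBx libraries (medians 4.30 and 3.15), Itgb8 was higher in most (medians 3.57 and 4.16), and Itgb5 had 1 low Control library at 69.2.

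The remaining RGD-binding chains were Itga5, the fibronectin receptor, at 29.1 ± 3.77 and 28.0 ± 3.09 FPKM (SD, n = 10 each), Itga8, a nephronectin receptor of mesenchymal cells, at 0.817 ± 0.180 and 0.860 ± 0.151, and the platelet chain Itga2b at 0.465 ± 0.219 and 0.467 ± 0.116. Itga5 and Itga8 had log2 fold changes of −0.05 and 0.04, with adjusted p-values of 0.816 and 0.848 in limma. Among collagen receptors, Itga1 had the highest level, 14.5 ± 3.55 FPKM in Control against 15.2 ± 1.85 in P.T.ATBx (SD, n = 10 each). Itga2 was at 2.02 and 2.04 FPKM, the fibroblast chain Itga11 at 0.645 and 0.792, and the cartilage chain Itga10 at 0.352 and 0.300. The 3 tested collagen receptors had log2 fold changes from 0.00 to 0.11, with adjusted p-values in limma from 0.621 to 0.990. Itga9, a receptor for tenascin-C, was at 6.32 and 6.18 FPKM. Itgb1, the common beta chain, was at 289 ± 18.0 and 296 ± 11.3 FPKM (SD, n = 10 each), above 98.1% of tested genes, with a log2 fold change of 0.03 (95% interval −0.05 to 0.11).

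Of the 7 tested leukocyte integrins, 0 passed the test in either direction. Itgb2, the shared chain of the beta 2 integrins, was at 52.2 ± 9.82 FPKM in Control against 45.4 ± 9.49 in P.T.ATBx (SD, n = 10 each), and lay under the Control median in 8 of the 10 P.T.ATBx libraries. Its log2 fold change was −0.20 (95% interval −0.46 to 0.06), with an adjusted p of 0.524 in limma. Itgal, the LFA-1 chain of lymphocytes, was at 9.17 ± 1.99 and 8.73 ± 2.65 FPKM. Itgam, the Mac-1 chain of macrophages and neutrophils, was at 23.2 ± 5.61 and 20.6 ± 3.71. Itgax, the chain known as CD11c, was at 35.1 ± 10.3 and 31.9 ± 8.70. Their log2 fold changes were −0.09, −0.15 and −0.14, with adjusted p-values in limma of 0.842, 0.670 and 0.828. Itgad, the chain known as CD11d, was below 0.13 FPKM in every library and listed at 0 in 1 library of each group.

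Of the alpha chains that pair with beta 2, Itgax took 51.6% of the summed FPKM in Control against 51.3% in P.T.ATBx, Itgam 34.8% and 34.5%, and Itgal 13.6% and 14.1%. The makeup of the beta 2 family therefore differed little between the group means, but 2 libraries stood apart. Itgam divided by Itgax gave 2.18 in Control 3, 2.03 in P.T.ATBx 2 and at most 0.849 in the other 18 libraries, with medians of 0.587 in Control against 0.580 in P.T.ATBx. In Control 3 Itgam was the highest of its group at 32.7 FPKM and Itgax the lowest at 15.0. In P.T.ATBx 2 Itgax was again the lowest of its group, at 11.2 FPKM. The same 2 libraries had the highest platelet marker sums of their groups, 56.2 in Control 3 and 54.4 in P.T.ATBx 2. These sums were nearly all Pf4, so they describe that gene and not the platelet list as a whole. The platelet chain Itga2b was at 1.06 FPKM in Control 3 but at 0.352 in P.T.ATBx 2, below the P.T.ATBx median of 0.459. Control 3 had the highest Control sum for 6 of the 12 marker lists, with 260 FPKM for adipocyte, 114 for colon epithelium, 91.1 for endothelial, 90.6 for pericyte and smooth muscle and 11.3 for Schwann cell markers beside the platelet sum. The part of these cells in the 2 ratios was not tested. Itgax had a log2 fold change of 0.013 without P.T.ATBx 2 and of −0.26 without Control 3.

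**Figure D5:**
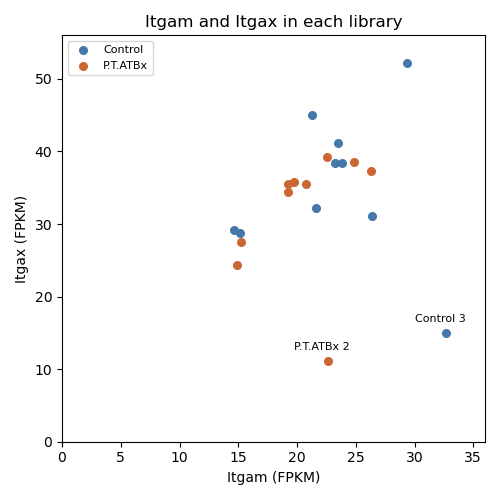
FPKM of Itgax against FPKM of Itgam, 1 point per library, coloured by group. Control 3 and P.T.ATBx 2 lie apart from the other 18 libraries, with more Itgam than Itgax.

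Itgae and Itgb7 form the receptor for E-cadherin that marks tissue-resident T cells and some dendritic cells, and Itga4 with Itgb7 forms the gut homing receptor. Itgae ran from 0.725 through a median of 1.10 to 1.48 FPKM in Control and from 0.984 through 1.53 to 1.88 in P.T.ATBx. Of the 10 P.T.ATBx libraries, 9 were above the Control median and 6 above the highest Control library. Its log2 fold change was 0.25 (95% interval 0.09 to 0.41), with an adjusted p of 0.123 in limma. Itgb7 was at 7.57 ± 1.25 and 6.74 ± 1.95 FPKM and Itga4 at 5.66 ± 1.22 and 6.08 ± 1.56 (SD, n = 10 each), with log2 fold changes of −0.17 and 0.08 and adjusted p-values of 0.604 and 0.839 in limma. The 4 T cell markers, Cd3d, Cd3e, Cd3g and Cd8a, all had fold changes below 0, with a median of −0.33, and 0 of 4 passed the test.

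Each leukocyte integrin was also set against Ptprc, the pan-leukocyte gene for CD45, within each library. Ptprc was at 44.6 ± 7.61 FPKM in Control against 43.8 ± 9.52 in P.T.ATBx (SD, n = 10 each). Relative to Ptprc, Itgae differed by 0.28 (two-sided permutation p = 0.0410, adjusted p = 0.164 over the 8 integrins) with 8 of 10 P.T.ATBx libraries above the Control median, and Itgb2 differed by −0.16 (permutation p = 0.0404, adjusted p = 0.164) with 9 of 10 below it. Neither passed the adjusted threshold. The other 6 differences, for Itgal, Itgam, Itgax, Itgad, Itgb7 and Itga4, lay between −0.14 and 0.11, with adjusted permutation p-values from 0.291 to 0.838. With a pseudocount of 0.1 the Itgae difference was 0.45 (adjusted permutation p = 0.0842). Adjusted over 11 differences, with the 3 of Itga7 included, the Itgae p was 0.0902 with a pseudocount of 1 and 0.0290 with one of 0.1 (both permutation tests). The 3 of Itga7 were picked with its result known, and their low p-values reduce the adjusted p of Itgae. No call is therefore read from the values over 11 differences.

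The laminins had 0 calls and a narrow makeup. Lama4 took 92.6% of the summed FPKM of laminin alpha chains in Control against 92.8% in P.T.ATBx, Lamb1 took 80.9% and 80.0% of the beta chains, with Lamb2 at 18.7% and 19.7%, and Lamc1 took 95.9% and 96.3% of the gamma chains. The trimers of alpha 4 with beta 1 or beta 2 and gamma 1 are those known from vessel walls. Lama4 was at 48.7 ± 7.44 and 44.4 ± 5.60 FPKM, Lamb1 at 77.8 ± 11.9 and 71.7 ± 11.2, and Lamc1 at 59.1 ± 9.24 and 57.6 ± 8.67 (SD, n = 10 each). Their log2 fold changes were −0.12, −0.11 and −0.03, with adjusted p-values in limma from 0.592 to 0.916. For both Lama4 and Lamb1, the value was under the Control median in 9 of the 10 P.T.ATBx libraries, but the ranges overlapped almost fully. The median over the 7 tested laminins was −0.11, with 6 values below 0 and 1 above, and was −0.033 without Control 3 and −0.0082 without the 4 libraries of highest sum. Lama4, Lamb1 and Lamc1 were all lowest in Control 1, P.T.ATBx 1 and P.T.ATBx 4, which are 3 of the 4 libraries with the highest summed FPKM.

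The epithelial and rarer laminin chains were low. Lama3 and Lamb3, chains of epithelial laminin, were at 0.291 and 0.252 FPKM and at 0.358 and 0.236 FPKM. Lama2, the chain of muscle and nerve basement membrane, reached 5.06 FPKM in Control 3, against at most 2.76 in any other library, and its means were 1.98 and 1.64. Lama5 was at 1.40 and 1.36 FPKM, Lamb2 at 17.9 and 17.7, Lama1 at 0.149 and 0.171, and Lamc3 at 0.091 and 0.058. The 8 genes below the filter (Itga2b, Itgb6, Itga10, Itgad, Lama1, Lama3, Lamb3 and Lamc3) had two-sided permutation p-values from 0.182 to 0.994, with 0 under 0.05.

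Partner chains were compared across the 10 libraries of each group for 14 pairs, which gave 28 correlations of log2(FPKM + 1) that share depth and cell makeup. By Pearson's r, 13 passed an adjusted permutation p of 0.05, 6 in Control against 7 in P.T.ATBx, and by Spearman's rho 4 and 6. In Control the highest r was that of Lamb1 with Lamc1, with r = 0.979 (permutation p = 4e-05, adjusted p = 0.00056) and rho = 0.903 (permutation p = 0.00071, adjusted p = 0.0098). In P.T.ATBx this pair had r = 0.949 (permutation p = 0.00093, adjusted p = 0.00434) but rho = 0.515 (permutation p = 0.133, adjusted p = 0.219). Without the 2 libraries farthest from the median of Lamb1, r was 0.888 and 0.839. Itgal with Itgb2 had r = 0.901 in Control against 0.819 in P.T.ATBx (permutation p = 0.00039 and 0.00426, adjusted p = 0.00218 and 0.0119), with rho of 0.818 and 0.794 (permutation p = 0.00599 and 0.00876, adjusted p = 0.0280 and 0.0307). Without the 2 farthest libraries its r was 0.820 and 0.470. Without the 4 libraries of highest sum it was 0.891 and 0.777 (adjusted permutation p = 0.0249 and 0.0874). Dropping the 2 farthest of the libraries then left gave 0.638 and 0.879, so the value of r varied with the libraries used. Itgae with Itgb7 had r of −0.026 and 0.0011 and rho of −0.164 and −0.067 (adjusted permutation p from 0.766 to 0.997), and Itga7 with Itgb1 had r of 0.468 and −0.213 and rho of 0.636 and −0.042 (adjusted permutation p from 0.102 to 0.921). Without the 4 libraries of highest sum, 6 of 28 passed by r, and Lamb1 with Lamc1 had r = 0.929 in Control against 0.792 in P.T.ATBx (adjusted permutation p = 0.0207 and 0.169).

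The genes around the receptors were read from 4 lists. Of 22 listed genes of the adhesion machinery, which links integrins to actin, 20 were tested and 0 passed in either direction. The lowest p-values belonged to Lims1, the PINCH adaptor of integrin-linked kinase, at 65.1 ± 4.44 and 71.7 ± 3.80 FPKM (SD, n = 10 each; log2 fold change 0.14, adjusted p = 0.117 in limma), and to its relative Lims2 (−0.36, adjusted p = 0.352 in limma). The integrin inhibitor Sharpin and the leukocyte parvin Parvg followed, with 0.10 and 0.20 (adjusted p = 0.385 and 0.442 in limma). The median over the 20 was 0.0068. Of 8 ligands of leukocyte integrins, 6 were tested and 0 passed. Among them Cdh1, the E-cadherin bound by the Itgae product, had −0.24 (adjusted p = 0.264 in limma), Icam1, the LFA-1 ligand, −0.23 (adjusted p = 0.405 in limma), and Vcam1, the ligand of alpha 4 integrins, −0.09 (adjusted p = 0.567 in limma). F11r, which codes for the junction protein JAM-A, had 0.07 (adjusted p = 0.730 in limma).

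Of 9 other matrix ligands, 7 were tested and 0 passed. Tnc, tenascin-C, was at 43.0 ± 10.3 FPKM in Control against 30.7 ± 8.47 in P.T.ATBx (SD, n = 10 each), with a log2 fold change of −0.48 (95% interval −0.81 to −0.14) and an adjusted p of 0.182 in limma. Spp1, osteopontin, was at 154 ± 26.8 and 126 ± 28.7 FPKM, with −0.30 and an adjusted p of 0.211 in limma. Thbs1 and Mfge8, which both offer RGD motifs, had 0.11 and 0.03 (adjusted p = 0.707 and 0.810 in limma). Of 11 genes for basement membrane proteins that associate with laminins, 8 were tested and 0 passed. The laminin-binding linker Nid1 had −0.15 (77.5 ± 12.6 and 69.5 ± 10.3 FPKM), the laminin alpha 5 receptor Bcam −0.35, Sgcb of the sarcoglycan complex 0.08 and the laminin receptor Dag1 −0.04, with adjusted p-values in limma from 0.536 to 0.781.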

How the data were processed

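The authors deposited 1 table of FPKM values with 1 column per library and 23402 genes, made from stranded total RNA libraries per the labels' protocols. The build was mm10, per the submitters' processing notes, while the aligner is not given in the sources used here, nor are the quantifier and annotation. FPKM holds no read counts, so total depth is unknown. Libraries were grouped by title, and 0 pairs of libraries held identical values. All 37 Entrez numbers matched RefSeq for GRCm38, the source of coordinates and promoter windows.

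Values were analysed as log2(FPKM + 1), which understates changes of low genes. Genes with a mean of at least 0.5 FPKM were tested with limma 3.58.1 in R 4.3.3, with group as the only term and robust, trended moderation, two-sided. Within-library differences and correlations used permutation tests with 100000 resamples in Python 3.11.15 (scipy 1.17.1). Every integrin and laminin was named except 1 gene, which counts in the totals but is not reported here, and for other lists genes past the threshold or up to 4 with the smallest p. The members and lists were chosen with earlier results of these data known. Alternatives changed the pseudocount, filter, scaling, weights, moderation, covariates, replicate block and libraries used. The adjustment over the 8 differences from Ptprc was chosen after seeing the data.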

Additional observations from a re-analysis of the deposited data

Results flagged for a closer look

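Within each group of 10, a library was singled out when its gap to the next value, divided by the range of the group, exceeded Dixon's 95% critical value for 10 samples. This met 14 of 74 gene and group combinations, where chance flags about 1 in 20 if values are normal and independent. Among genes above the filter, the same rule met 11.7% of all 25576 combinations and 9 of 58, or 15.5%, of those of integrins and laminins, so nothing particular to these genes is read from the count. Control 3 accounted for 5 of the 14. It was the highest Control library for Itga2b (1.06 FPKM, next 0.478), Lama2 (5.06, next 2.36) and Lamc3 (0.264, next 0.137). It was the lowest for Itgax (15.0, next 28.7) and Itgb5 (69.2, next 98.5). Of these genes, Itga2b and Lamc3 were below the filter. Control 1 was the lowest Control library for Itgb1 (247 FPKM, next 280), Lama4 (32.8, next 42.6), Lamb1 (49.5, next 69.6) and Lamc1 (38.5, next 51.6), and had the highest summed FPKM of all libraries, 752782. Control 7 was the highest for Itgad (0.125 FPKM, next 0.058), which was below the filter.

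Among the P.T.ATBx libraries, Itgax was lowest in P.T.ATBx 2 (11.2 FPKM, next 24.4) and Itgb3 was highest in P.T.ATBx 6 (4.39, next 3.42). Lama3 was highest in P.T.ATBx 10 (0.392 FPKM, next 0.278) and Lamb3 in P.T.ATBx 7 (0.525, next 0.310), both below the filter.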

How the results depend on the processing

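The number of integrins and laminins called higher, 1, was 0 on the scale of equal sums, with the skeletal muscle covariate and without the 4 libraries of highest summed FPKM, a setting chosen after seeing the data, and 0 to 1 when leaving out single libraries. The number called lower, 0, was 1 with library weights and with the replicate block, and 0 to 1 when leaving out single libraries; in each case it was Itgb3 (adjusted p in limma 0.0282 with weights and 0.0400 with the block). The replicate block changed no other call among them. The labels do not say whether replicate numbers pair the libraries. The correlation of same-numbered libraries exceeded 0.1 in 5 of 10 pairs (−0.31 to 0.39), and 3 of 10 libraries matched their own number best. These values do not settle whether the libraries were paired. Of the correlations, 6 passed without the 4 libraries. Over all genes, counts higher and lower were 154 and 152 with weights, 20 and 29 on the scale of equal sums, 115 and 106 with Ptprc as a covariate, and 31 and 36 without the 4 libraries. Some values that did not pass the test changed sign, among them Itgax (−0.14 with all libraries) and Lama2 (−0.11), which were not near 0. The changes were Itga2 with the muscle covariate (−0.022), Itga6 (0.0015) and Lamc1 (0.0047) without the 4 libraries, Lama2 with weights (0.014) and without the 4 libraries (0.075), and Itgad minus Ptprc at a pseudocount of 0.1 (−0.027). Leaving out single libraries gave −0.034 to 0.048 for Itga2, −0.058 to 0.0079 for Itga6, −0.26 to 0.013 for Itgax, −0.18 to 0.011 for Lama2, −0.045 to 0.093 for Lama5, −0.067 to 0.034 for Lamb2, −0.060 to 0.018 for Itga9 and −0.10 to 0.013 for Lamc1. The causes were not tested. Itgb4, Itga8 and Itga11 had no value with a filter at 1 FPKM. Depth is known only in relative terms, so counting error could not be given for low genes.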
